A study of Arabidopsis thaliana with 12 samples.

Results

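The WRKY family is a large family of plant transcription factors that carry the WRKY DNA-binding domain. The genes described here are 55 WRKY genes of *Arabidopsis thaliana*, chosen by gene identifier from the 23784 genes of the count table. The 3 WRKY genes whose products are fused to NLR immune receptor domains were left out, and 12 further WRKY genes in the counts are not among the 55 and are not described.

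RNA was measured in the aerial parts of young seedlings of 4 genotypes in the Columbia-0 wild type (WT) background, with 3 libraries each and 12 in all. *epn* carries mutations in *EDS1*, *PAD4* and *NDR1*, which are needed for signalling by intracellular immune receptors in effector-triggered immunity (ETI). *quintuple* carries mutations in *CBP60b*, *CBP60c*, *CBP60d*, *CBP60e* and *CBP60f*, the CBP60b clade of calmodulin-binding transcription factors, and *octuple* combines all of these mutations. Each library came from a pool of seedlings. According to the study's supplement *quintuple* plants die at a young age, so changes of dying tissue in *quintuple* cannot be told apart from other changes. In bulk RNA, a change in the number of cells of a type cannot be told apart from a change in RNA per cell.

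WRKY proteins bind W-box DNA motifs and act as activators or repressors, often of other WRKY genes as well as their own. Many of them respond to pathogens, salicylic acid (SA), wounding or leaf ageing, and members of group III and group IIa, which are classed by their domain and zinc-finger type, are among those best known in Arabidopsis immunity. Mitogen-activated protein kinases phosphorylate some WRKY proteins, and small proteins with a VQ motif bind others.

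The W-box is the sequence that links the family to its own promoters, so 4 promoters are shown: those of *WRKY53* and *WRKY48*, 2 of the genes called higher in both comparisons of *octuple* below, and those of *WRKY33* and *WRKY70*, which were high in *quintuple* and not in *octuple*. Each is the 300 bases before the annotated gene start in the RefSeq TAIR10.1 genome, written 5′ to 3′ on the strand of the gene, with each TTGACC or TTGACT motif of either strand in capitals. They lie at chr4:12393983-12394282 (minus strand), chr5:20090348-20090647 (plus strand), chr2:16107935-16108234 (plus strand) and chr3:20910624-20910923 (minus strand).
WRKY53: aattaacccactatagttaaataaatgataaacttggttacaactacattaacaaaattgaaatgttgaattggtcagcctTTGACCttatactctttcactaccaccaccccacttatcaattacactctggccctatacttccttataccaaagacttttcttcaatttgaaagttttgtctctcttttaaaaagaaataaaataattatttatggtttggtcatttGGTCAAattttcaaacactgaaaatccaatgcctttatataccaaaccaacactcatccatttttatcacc
WRKY48: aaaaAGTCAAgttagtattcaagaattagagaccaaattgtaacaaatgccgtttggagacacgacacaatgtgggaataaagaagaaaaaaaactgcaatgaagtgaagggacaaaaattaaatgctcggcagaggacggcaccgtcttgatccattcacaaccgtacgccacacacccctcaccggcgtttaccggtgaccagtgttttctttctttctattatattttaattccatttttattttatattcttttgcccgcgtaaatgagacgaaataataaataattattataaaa
WRKY33: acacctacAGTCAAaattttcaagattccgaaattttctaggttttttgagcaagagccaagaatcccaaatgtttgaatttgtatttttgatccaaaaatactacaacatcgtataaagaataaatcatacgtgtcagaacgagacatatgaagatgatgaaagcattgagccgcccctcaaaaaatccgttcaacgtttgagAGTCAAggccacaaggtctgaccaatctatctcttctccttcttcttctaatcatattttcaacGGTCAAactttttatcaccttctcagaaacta
WRKY70: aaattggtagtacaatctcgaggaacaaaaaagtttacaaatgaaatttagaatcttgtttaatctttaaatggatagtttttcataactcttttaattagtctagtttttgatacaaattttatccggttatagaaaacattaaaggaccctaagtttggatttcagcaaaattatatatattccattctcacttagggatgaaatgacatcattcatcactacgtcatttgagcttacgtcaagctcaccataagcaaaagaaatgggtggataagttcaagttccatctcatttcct

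The *WRKY33* window held 3 W-boxes, the *WRKY53* window 2, the *WRKY48* window 1 and the *WRKY70* window none. Over the family, 23 of the 55 windows (41.8%) held at least 1 W-box, against 32.2% of the windows of 23783 genes, and 10 (18.2%) held 2 or more, against 7.75%. A W-box was in 15 of the 35 windows of members that were higher in *quintuple* than in WT by the test below, and in 8 of the other 20. The motif is a description of these letters only.

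Depth was between 38698646 and 44294404 counted fragments per library, so the floor set by a count of 0, taken as 3 counts and covering counting error only, was 0.0677 to 0.0775 CPM (counts scaled to library size). CPM values below were scaled by TMM factors, which were 0.90 to 1.03 in WT and 1.06 to 1.26 in *quintuple*. Of the mutated genes, *EDS1* was at 17.9 to 23.2 CPM in WT and 4.14 to 8.87 CPM in the libraries of *epn* and *octuple*, and *PAD4* at 4.66 to 9.98 and 1.14 to 3.54 CPM. *NDR1* was at 5.50 to 7.97 CPM in WT, 2.47 to 6.14 CPM in *epn* and 3.42 to 4.99 CPM in *octuple*, and its *epn* replicate 3 lay within the WT range. Of the CBP60b clade, *CBP60c* was below WT in all libraries of *quintuple* and *octuple*, and *CBP60e* in those of *quintuple*. *CBP60b* was higher in *quintuple* (154 to 248 CPM) than in WT (41.7 to 44.1 CPM), *CBP60d* was above WT in *quintuple* and overlapped with it in *octuple*, and *CBP60f* was at 6.43 to 13.0 CPM in WT, 18.1 to 28.0 CPM in *quintuple* and 24.3 to 55.3 CPM in *octuple*. The summed FPKM (fragments scaled to exon length and library size) of 7 leaf marker genes was 45421 to 64796 in WT and 5131 to 21950 in *quintuple*, against 40953 to 62837 in *octuple*. Of the 7 root marker genes, the root and hypocotyl gene *PYK10* was at 72.8 to 80.7 FPKM in WT and 996 to 1378 FPKM in *quintuple*. It was also above every WT and *epn* library (92.8 to 111 FPKM in *epn*) in all 3 of *octuple*, at 193 to 404 FPKM. The other 6 root marker genes were at or near 0 FPKM in all libraries. Replicate 3 was the lowest of each genotype in the leaf markers *CAB1*, *CAB2*, *LHCA2* and *RCA*. *CAB2* was at 29.6 FPKM in WT replicate 3 and 6290 FPKM in WT replicate 1. *RBCS1A*, *RBCS2B* and *RBCS3B* were not lowest in replicate 3 of WT, *epn* or *octuple*. *RBCS2B* was highest there, at 8584 FPKM in WT replicate 3 and 5459 FPKM in WT replicate 1. The part of these differences in the WRKY values was not tested.

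In *quintuple*-vs-WT, 35 of the 55 members were higher and 2 were lower by edgeR's quasi-likelihood test. A call needs an adjusted p (Benjamini-Hochberg) under 0.05 together with a 2-fold difference or more. Of all 19691 genes tested, 19.5% were called higher and 19.5% lower. Of the members, 16 were tested and not called, and 2, *WRKY9* and *WRKY74*, had too few counts. For 11 of the 35, *quintuple* was where the counts lay, since they had too few counts for a test of *epn*-vs-WT. All 3 libraries of *quintuple* were above all 3 of WT for 44 of 53 members with enough counts, against 34.6% of all genes with 10 counts in at least 3 of the 6 libraries.

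By family group, all 9 members of group III and all 3 of group IIa were called higher, with 10 of 12 in group IIc and 5 of 7 in group IIb. The 11 members with too few counts for *epn*-vs-WT all lie in groups III (*WRKY38*, *WRKY41*, *WRKY55*, *WRKY62*), IIb (*WRKY31*, *WRKY61*, *WRKY72*) and IIc (*WRKY50*, *WRKY51*, *WRKY71*, *WRKY75*). In group I it was 5 of 10, in group IIe 2 of 7 and in group IId 1 of 7. The summed FPKM of the 55 members was 178 to 181 in WT, 139 to 185 in *epn*, 915 to 1906 in *quintuple* and 194 to 320 in *octuple*. The family sum in *octuple* was above that of every WT and *epn* library in all 3 libraries, and far below *quintuple*.

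**Figure D1:**
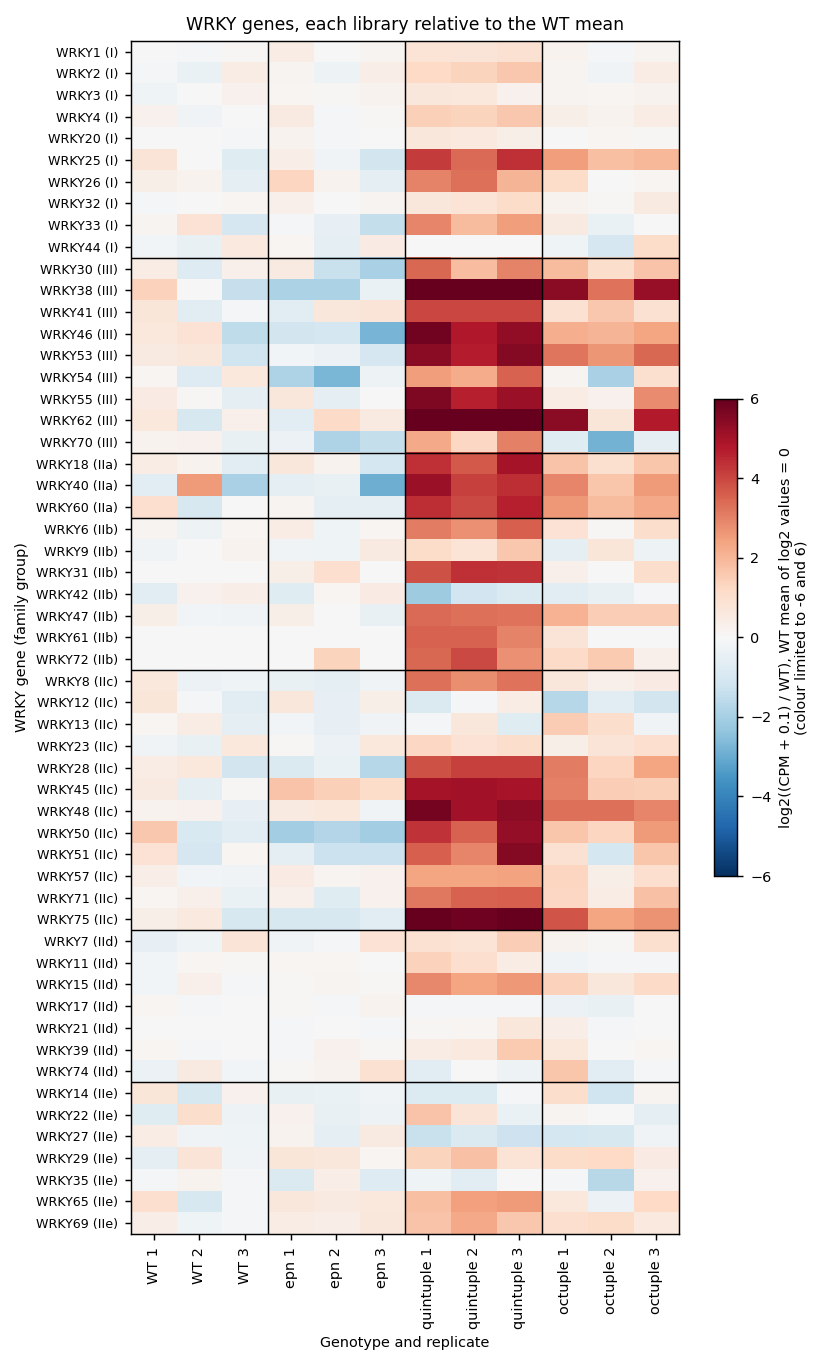
Level of each of the 55 WRKY genes in the 12 libraries as log2(CPM + 0.1) minus the mean of WT, with genes in rows by family group and libraries in columns. The strongest colours are in the 3 *quintuple* columns, and *WRKY38*, *WRKY48* and *WRKY53* are among the genes still coloured in all 3 *octuple* columns.

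**Figure D2:**
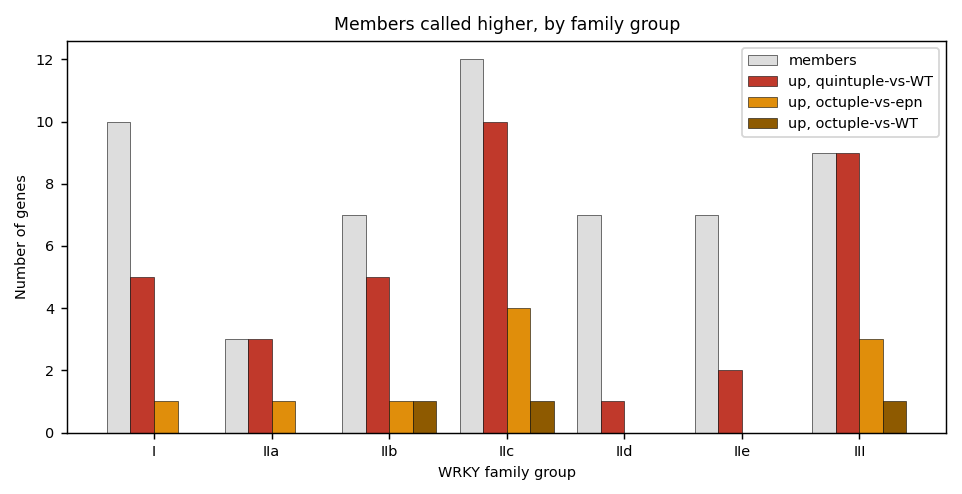
Number of members in each family group (grey) and of those called higher in *quintuple*-vs-WT (red), *octuple*-vs-*epn* (orange) and *octuple*-vs-WT (brown). In group III the red bar reaches all 9 genes and the orange bar 3, and groups IId and IIe have none in either *octuple* comparison.

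The question put to the family was which members keep their rise when the ETI genes are also mutated. In *octuple*-vs-WT 3 members were called higher and none lower, where 1.78% of 19256 genes were called higher and 0.151% lower. In *octuple*-vs-*epn* 10 were called higher and none lower, where 2.29% of 19238 genes were called higher and 0.125% lower. The 3 were *WRKY47*, *WRKY48* and *WRKY53*, and they were also among the 10. Of the 10, *WRKY38*, *WRKY50* and *WRKY75* had enough counts for *octuple*-vs-*epn* only through *octuple*, where their counts lay. All 10 were among the 35 called in *quintuple*-vs-WT, which makes 100% of the *octuple*-vs-*epn* list and 28.6% of the *quintuple*-vs-WT list. The matching shares over all genes were not counted. In the study, most of all genes higher in *octuple*-vs-WT were higher in *quintuple*-vs-WT too, so such overlap is not particular to the family. The comparisons with WT share the WT libraries, and those of *octuple* share the *octuple* libraries. All *octuple* libraries were above all WT libraries for 14 of 46 members with enough counts (12.8% of all such genes), and above all *epn* libraries for 15 of 46 (12.7%).

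These counts rest on few libraries. With the replicate number as a block, 13 members were called higher in *octuple*-vs-WT (5.07% of all genes) and 13 in *octuple*-vs-*epn* (5.53% of all genes). Of the members that rose in *quintuple*, 16 were in at least 1 of these lists, against 10 without the block. The matching share of all genes that rose in *quintuple* was not counted. DESeq2 called 14 members higher against WT (4.18% of all genes) and 13 against *epn* (4.96%). The block added *WRKY15*, *WRKY18*, *WRKY25*, *WRKY28*, *WRKY30*, *WRKY38*, *WRKY45*, *WRKY46*, *WRKY60* and *WRKY75* in *octuple*-vs-WT, and *WRKY18*, *WRKY40* and *WRKY54* in *octuple*-vs-*epn*. Without *octuple* replicate 1 the unblocked counts were 0 and 2, where 0.2154% and 0.4625% of all genes were called higher. The count against WT was 1 without WT replicate 1, WT replicate 2, *octuple* replicate 2 or *octuple* replicate 3 (0.731%, 0.281%, 0.506% and 1.045% of all genes). The count against *epn* was 3 without *epn* replicate 1 and 2 without *epn* replicate 2 (0.843% and 0.368% of all genes). The loss of calls was thus not particular to the family.

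*WRKY48* (group IIc, AT5G49520), a stress-induced repressor of basal resistance, was at 1.22, 1.28 and 0.71 CPM in WT, 1.55, 1.69 and 0.894 CPM in *epn*, 61.3, 37.2 and 47.3 CPM in *quintuple* and 11.0, 11.2 and 8.68 CPM in *octuple*. Every *octuple* library was above every WT and *epn* library and below every *quintuple* library. The log2 fold change was 5.50 ± 0.33 (SE) in *quintuple*-vs-WT (adjusted p = 1.8e-04), 3.27 ± 0.27 in *octuple*-vs-WT (adjusted p = 0.0087) and 2.89 ± 0.28 in *octuple*-vs-*epn* (adjusted p = 0.0092). It kept its call in *octuple*-vs-*epn* with each of the 6 libraries left out, and in *octuple*-vs-WT with each except *octuple* replicate 1 (adjusted p = 0.0542).

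*WRKY53* (group III, AT4G23810), a regulator of leaf senescence that responds to SA, was at 4.25, 4.65 and 1.21 CPM in WT, 2.57, 2.27 and 1.39 CPM in *epn*, 129.7, 78.1 and 135 CPM in *quintuple* and 27.8, 19.0 and 32.4 CPM in *octuple*. *octuple* did not overlap with any other genotype. It differed by 2.97 ± 0.52 from WT (adjusted p = 0.049) and by 3.65 ± 0.31 from *epn* (adjusted p = 0.0053) on the log2 scale. It kept its call against *epn* with each library left out, and lost that against WT in all but 1 of the 6 such fits. Of its exonic 50-base sequences, 18.5% are also in the antisense neighbour AT4G23800, and without a stated strand setting reads of the overlap cannot be told apart.

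*WRKY47* (group IIb, AT4G01720) was at 8.61, 5.98 and 5.82 CPM in WT, 8.45, 6.69 and 4.82 CPM in *epn*, 71.1, 67.0 and 65.5 CPM in *quintuple* and 28.6, 18.9 and 18.7 CPM in *octuple*. *octuple* again lay apart from all other genotypes, between WT and *quintuple*. The log2 change was 1.70 ± 0.25 against WT (adjusted p = 0.033) and 1.72 ± 0.27 against *epn* (adjusted p = 0.028). No fit that left out a library of *octuple* or WT called it against WT (adjusted p = 0.0545 to 0.14), while with the block the adjusted p was 1.2e-04.

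Among the other 7 members called against *epn*, group III gave *WRKY46* and *WRKY38*. *WRKY46* (AT2G46400), which acts with *WRKY70* and *WRKY53* in basal resistance, was at 4.69, 5.62 and 0.994 CPM in WT, 1.34, 1.39 and 0.353 CPM in *epn*, 174, 87.9 and 123 CPM in *quintuple* and 13.9, 12.6 and 15.9 CPM in *octuple*. *octuple* was above all WT and *epn* libraries, which overlapped with each other. Its log2 change was 3.77 ± 0.48 against *epn* (adjusted p = 0.015) and 1.91 ± 0.57 against WT (adjusted p = 0.2, or 0.029 with the block). *WRKY38* (AT5G22570), a negative regulator of basal defence whose product works with *WRKY62*, was at 0.881, 0.276 and 0.0473 CPM in WT, 0, 0 and 0.188 CPM in *epn*, 108, 59.3 and 199.9 CPM in *quintuple* and 15.9, 3.54 and 14.3 CPM in *octuple*. It was near the limit of counting in *epn*, at 0 in 2 libraries, and had enough counts for a test against *epn* only through *octuple*. Its log2 change was 7.34 ± 1.10 against *epn* (adjusted p = 0.024) and 4.82 ± 0.99 against WT (adjusted p = 0.074, but called with the block).

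Group IIc gave *WRKY28*, *WRKY50* and *WRKY75* besides *WRKY48*. *WRKY28* (AT4G18170), an activator of the SA biosynthesis gene *ICS1*, was at 0.674, 0.778 and 0.166 CPM in WT, 0.21, 0.328 and 0.0706 CPM in *epn*, 7.89, 9.53 and 9.74 CPM in *quintuple* and 4.68, 1.26 and 2.85 CPM in *octuple*. All *octuple* libraries were above all WT and *epn* libraries, by 3.83 ± 0.70 on the log2 scale against *epn* (adjusted p = 0.046). *WRKY75* (AT5G13080), known from phosphate starvation and leaf senescence, was at 0.156, 0.201 and 0 CPM in WT, 0, 0 and 0.0235 CPM in *epn*, 12.9, 11.2 and 28.8 CPM in *quintuple* and 2.56, 0.916 and 1.19 CPM in *octuple*. It had 1 count over the 3 *epn* libraries and 198 over those of *octuple*, a ratio of 189 with an exact 95% interval of 33.5 to 7490 for counting error only (adjusted p = 0.016). *WRKY50* (AT5G26170), which represses jasmonate responses together with *WRKY51*, was at 1.19, 0.126 and 0.166 CPM in WT, 0, 0.0253 and 0 CPM in *epn*, 8.47, 4.79 and 16.1 CPM in *quintuple* and 1.25, 0.941 and 2.37 CPM in *octuple*. It too had 1 count in *epn*, against 200 in *octuple*, a ratio of 191 (33.8 to 7565, adjusted p = 0.014). Like *WRKY75*, it had enough counts for a test against *epn* only through *octuple*. WT replicate 1 reached the level of *octuple* for *WRKY50*, so the genotypes overlapped there, and the log2 change of 1.63 ± 0.90 against WT did not pass the test (adjusted p = 0.48).

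*WRKY25* (group I, AT2G30250), known from heat and bacterial responses, was at 8.3, 4.77 and 2.89 CPM in WT, 6.48, 4.17 and 2.19 CPM in *epn*, 90.4, 53.0 and 104 CPM in *quintuple* and 28.1, 17.4 and 19.4 CPM in *octuple*. The *octuple* libraries were above all of WT and *epn*. The log2 change was 2.33 ± 0.41 against *epn* (adjusted p = 0.04) and 2.03 ± 0.41 against WT (adjusted p = 0.071, or 8.7e-04 with the block).

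Group IIa holds *WRKY18*, *WRKY40* and *WRKY60*, whose products pair with each other and repress defence genes. *WRKY60* (AT2G25000) was at 6.2, 1.48 and 2.93 CPM in WT, 3.38, 2.05 and 2 CPM in *epn*, 66.5, 48.7 and 78.0 CPM in *quintuple* and 19.0, 11.6 and 15.1 CPM in *octuple*, and *octuple* overlapped with no other genotype. Its log2 change was 2.61 ± 0.29 against *epn* (adjusted p = 0.012) and 2.11 ± 0.51 against WT (adjusted p = 0.12, or 0.0016 with the block). *WRKY18* (AT4G31800) was at 11.1, 9.44 and 4.94 CPM in WT, 12.8, 9.17 and 3.81 CPM in *epn*, 172, 105 and 259 CPM in *quintuple* and 26.7, 15.9 and 25.3 CPM in *octuple*. The *octuple* libraries were above WT and *epn*, but the log2 changes of 1.42 ± 0.34 and 1.39 ± 0.44 did not pass the test (adjusted p = 0.12 and 0.19, or 0.015 and 0.025 with the block). *WRKY40* (AT1G80840) was at 0.856, 8.44 and 0.284 CPM in WT, 0.866, 0.985 and 0.0941 CPM in *epn*, 53.4, 24.7 and 31.5 CPM in *quintuple* and 11.1, 4.53 and 8.44 CPM in *octuple*. WT replicate 2 was as high as *octuple*, and the log2 change against WT of 1.33 ± 1.12 did not pass the test (adjusted p = 0.67). Against *epn* it was 3.62 ± 0.75 (adjusted p = 0.065, or 0.0059 with the block).

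**Figure D3:**
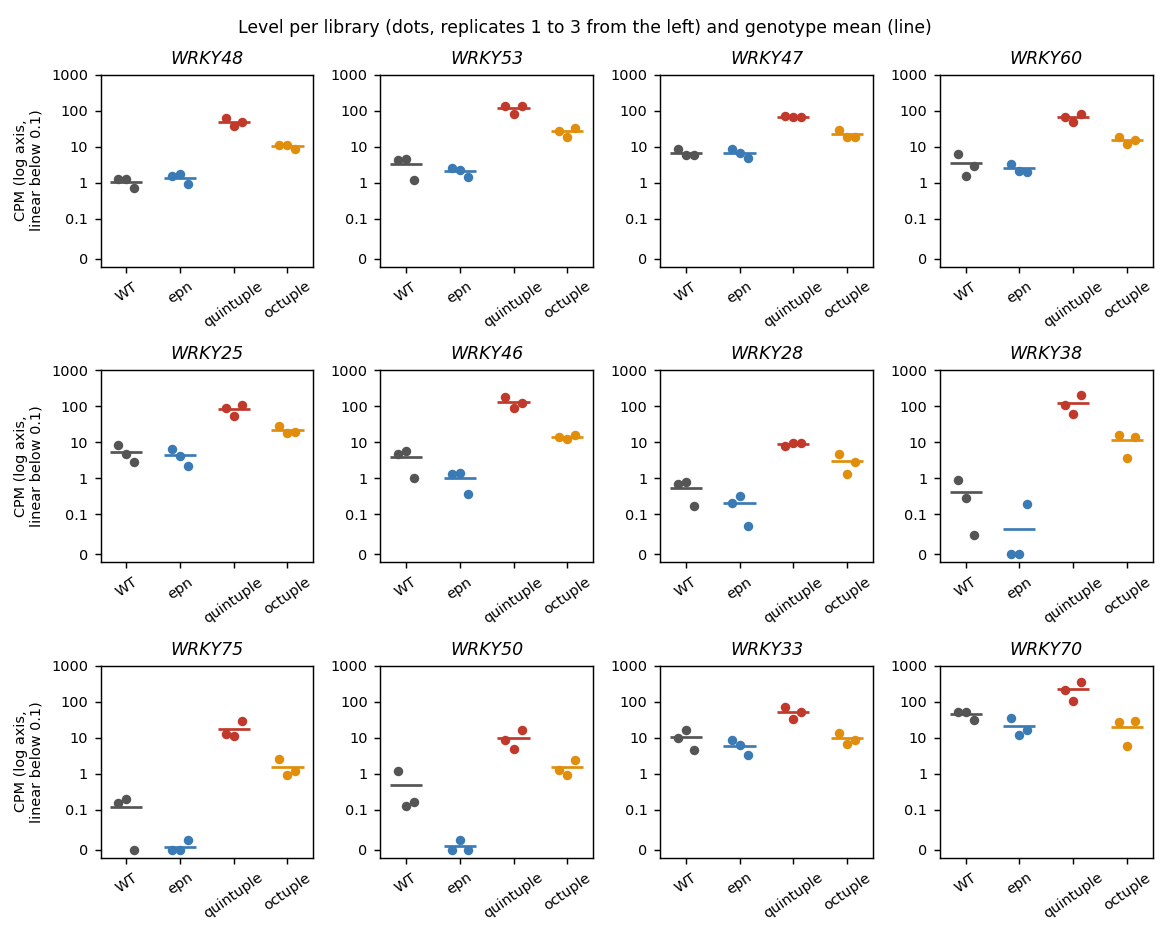
CPM in each library (dots) and genotype mean (line) for the 10 members called higher in *octuple*-vs-*epn* and for *WRKY33* and *WRKY70*, on a log axis that is linear below 0.1. For the 10, the *octuple* dots lie above all *epn* dots and below all *quintuple* dots, and for *WRKY33* and *WRKY70* they overlap with *epn*.

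*WRKY70*, *WRKY54* and *WRKY33* are well-known defence regulators that were high in *quintuple* and did not pass the unblocked test in either *octuple* comparison. *WRKY70* (group III, AT3G56400), which promotes SA responses and represses jasmonate responses, was at 50.1, 51.7 and 31.3 CPM in WT, 34.2, 11.7 and 15.8 CPM in *epn*, 209, 103 and 358 CPM in *quintuple* and 26.5, 5.99 and 28.5 CPM in *octuple*. It was the member with the highest FPKM in WT (28.3 ± 5.56, SD, n = 3) and in *quintuple* (178 ± 117). The log2 change was 2.33 ± 0.47 in *quintuple*-vs-WT (adjusted p = 0.0064), and in *octuple* it was -0.03 ± 0.63 against *epn* and -1.13 ± 0.56 against WT (adjusted p = 0.99 and 0.43), with every *octuple* library below every WT library. The level in *octuple* was -3.43 ± 0.71 from that in *quintuple* (adjusted p = 0.0088).

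*WRKY54* (group III, AT2G40750), the close relative of *WRKY70* in senescence, was at 5.91, 3.19 and 8.56 CPM in WT, 1.42, 0.732 and 4.33 CPM in *epn*, 32.0, 25.9 and 63.5 CPM in *quintuple* and 6.03, 1.36 and 10.7 CPM in *octuple*. *octuple* spread over the range of WT and *epn*. The log2 change was 0.04 ± 0.71 against WT (adjusted p = 0.99) and 1.46 ± 0.87 against *epn* (adjusted p = 0.52, or 0.012 with the block). *WRKY33* (group I, AT2G38470), which drives camalexin synthesis and resistance to necrotrophs, was at 10.0, 16.4 and 4.4 CPM in WT, 8.5, 6.31 and 3.27 CPM in *epn*, 69.2, 33.6 and 52.3 CPM in *quintuple* and 13.2, 6.76 and 8.78 CPM in *octuple*. *octuple* overlapped with both WT and *epn*, with log2 changes of -0.10 ± 0.49 and 0.66 ± 0.39 (adjusted p = 0.96 and 0.53). *WRKY33* shares exon positions with an antisense neighbour in the counts.

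The largest log2 rises in *quintuple*-vs-WT were those of genes nearly silent in WT. *WRKY62* (group III, AT5G01900) was at 0.207, 0 and 0.142 CPM in WT, 0.0262, 0.328 and 0.188 CPM in *epn*, 49.9, 41.2 and 160.2 CPM in *quintuple* and 8.34, 0.223 and 5.12 CPM in *octuple*. Its *octuple* libraries were uneven, since replicate 2 was within the range of *epn* and the other 2 were above. The log2 change was 9.46 ± 1.02 in *quintuple*-vs-WT (adjusted p = 6.5e-04) and 4.62 ± 1.32 in *octuple*-vs-*epn* (adjusted p = 0.16).

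*WRKY31*, *WRKY61* and *WRKY72*, all of group IIb, had 0 counts in all WT libraries, and *WRKY61* also in all *epn* libraries. Against 3 counts per WT library, *quintuple* was at least 28.7-fold higher for *WRKY31*, 14.9-fold for *WRKY61* and 15.7-fold for *WRKY72*. These bounds use library totals without the TMM factors. The factors were larger in *quintuple* than in WT, so bounds scaled by them would be lower. *WRKY72* is known from basal immunity of tomato and Arabidopsis. In *octuple* the 3 genes were at 0 to 0.198 CPM, with too few counts for a test against WT or *epn*. Of the exonic 50-base sequences of *WRKY61*, 9.89% are shared with an antisense gene.

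The other members among the 12 largest rises were *WRKY55* (6.61 ± 0.72), *WRKY41* (5.11 ± 0.78) and *WRKY45* (5.08 ± 0.33) on the log2 scale, with *WRKY38*, *WRKY75*, *WRKY48*, *WRKY53* and *WRKY46* described above. *WRKY41* shares 42.9% of its exonic 50-base sequences with the antisense neighbour AT4G11080, so its value is uncertain. *WRKY45* (group IIc, AT3G01970), known from leaf senescence and phosphate uptake, was at 1.17, 0.477 and 0.828 CPM in WT, 2.81, 2.25 and 1.81 CPM in *epn*, 27.6, 29.1 and 26.9 CPM in *quintuple* and 6.99, 2.38 and 2.29 CPM in *octuple*. Its *epn* libraries were all above those of WT, with a log2 change of 1.47 ± 0.40 that did not pass the test. The *octuple* libraries were above WT but overlapped with *epn*. The log2 changes were 2.24 ± 0.59 (adjusted p = 0.15, but called with the block) and 0.76 ± 0.49 (adjusted p = 0.56).

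**Figure D4:**
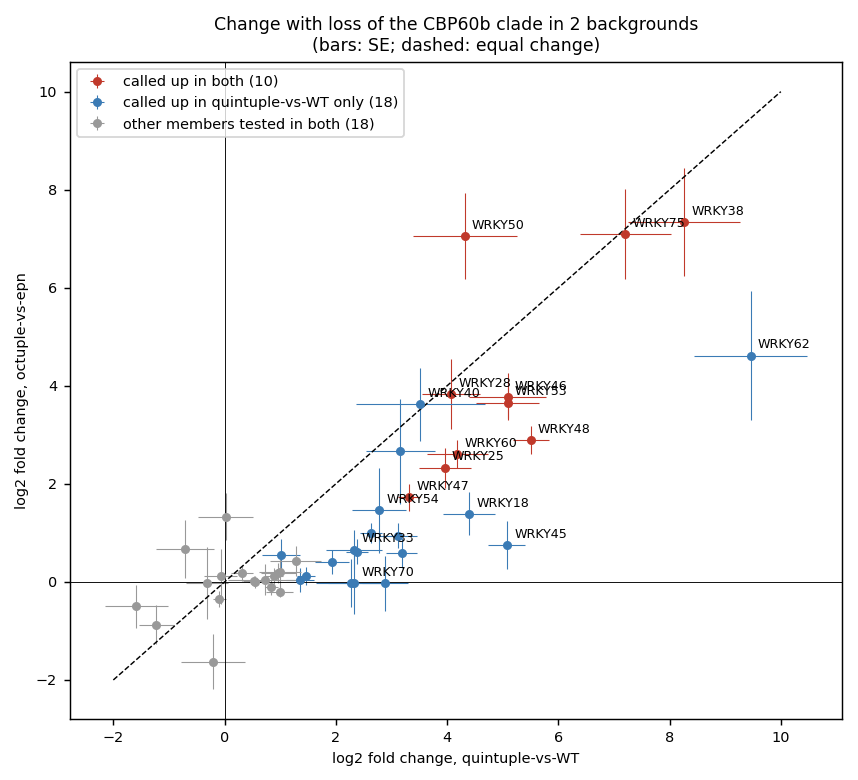
Log2 fold change in *octuple*-vs-*epn* against that in *quintuple*-vs-WT for the 46 members tested in both, with SE bars and a dashed line of equal change. The 10 members in red were called higher in both, 18 in blue were called higher in *quintuple*-vs-WT only, and *WRKY70* and *WRKY33* lie near 0 on the vertical axis.

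*octuple*-vs-*quintuple* tests directly whether the level is lower once the ETI genes are mutated too. In it, 33 of the 55 members were lower and none was higher, where 14.9% of 19643 genes were called lower and 16.7% higher. It uses the same *quintuple* libraries as *quintuple*-vs-WT and the same *octuple* libraries as the comparisons above, so a member chosen for being high in *quintuple* tends to be lower against it, and the lists are not set against each other. For the 10 members called higher in *octuple*-vs-*epn* the log2 change against *quintuple* ran from -3.48 for *WRKY75* and -3.42 for *WRKY38* to -1.60 for *WRKY28* and -1.59 for *WRKY47*. Of the 35 members called higher in *quintuple*-vs-WT, 31 had a mean CPM in *octuple* above the means of both WT and *epn*, and the other 4 were *WRKY26*, *WRKY33*, *WRKY65* and *WRKY70*. This compares means without a test, and the share over all genes was not counted. For *WRKY31* and *WRKY61* the *octuple* mean rests on 6 and 3 counts.

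Whether loss of the CBP60b clade changed a member differently in the 2 backgrounds was tested as the difference of *octuple*-vs-*epn* and *quintuple*-vs-WT over all 12 libraries. The log2 change was lower in the *epn* background for 16 members and higher for none, where 8.74% of 20134 genes had a called difference below 0 and 13.9% above 0. With the replicate block it was 22 members (11.4% of genes). Among the 16, *WRKY31*, *WRKY41* and *WRKY72* had too few counts for a test of *octuple*-vs-*epn*, so their values rest on *quintuple*. *WRKY48* and *WRKY47* were among the 16 (log2 differences of -2.61 ± 0.41 and -1.59 ± 0.34), and both were called higher in *octuple*-vs-*epn*, too. For *WRKY53* (-1.42 ± 0.62, adjusted p = 0.11), *WRKY46* (-1.31 ± 0.82, adjusted p = 0.25) and *WRKY28* (-0.23 ± 0.94, adjusted p = 0.88) the difference did not pass the test, which does not show that the rises were equal.

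No member was called in *epn*-vs-WT, where 0% of 18992 genes were called in either direction. At an unadjusted p below 0.05, 1 of 42 tested members was higher and 2 were lower, where 175 and 244 of the 18992 genes were. DESeq2 called no member, where it called 0.0264% of genes higher and 0.15% lower. With the replicate block 3 members of group III were called lower in *epn*, where 0.49% of all genes were. They were *WRKY46* (-1.81 ± 0.25, adjusted p = 0.0052), *WRKY54* (-1.64 ± 0.24, adjusted p = 0.0082) and *WRKY70* (-1.20 ± 0.23, adjusted p = 0.029).

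The members called lower in *quintuple*-vs-WT were *WRKY42* (group IIb) and *WRKY27* (group IIe). *WRKY42*, which in Arabidopsis represses the phosphate exporter gene *PHO1*, was at 0.57, 1.21 and 1.32 CPM in WT, 0.551, 1.09 and 1.41 CPM in *epn*, 0.147, 0.389 and 0.483 CPM in *quintuple* and 0.603, 0.693 and 0.885 CPM in *octuple*. *quintuple* was below every other library in all 3 replicates, by -1.59 ± 0.57 on the log2 scale against WT (adjusted p = 0.0499). *WRKY27*, known from responses to a bacterial wilt pathogen, was at 4.02, 2.51 and 2.46 CPM in WT, 3.36, 1.94 and 4.31 CPM in *epn*, 1.1, 1.56 and 1.18 CPM in *quintuple* and 1.35, 1.44 and 2.53 CPM in *octuple*. Here *quintuple* was below WT and *epn* and overlapped with *octuple*, and it changed by -1.23 ± 0.32 (adjusted p = 0.016). Without a library at a time, 0 or 1 of the pair stayed called, and scaling by library size alone called neither.

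Besides *WRKY70*, the members with the highest FPKM in WT were *WRKY11* (13.2 ± 1.78, SD, n = 3), a negative regulator of basal resistance, and *WRKY3* (12.9 ± 3.02), known from resistance to necrotrophs. *WRKY11* was at 22.4, 27.5 and 26.2 CPM in WT, 27.7, 27.2 and 25.2 CPM in *epn*, 66.4, 50.1 and 34.8 CPM in *quintuple* and 22.0, 24.3 and 24.0 CPM in *octuple*. Only *quintuple* stood apart from the other genotypes. Its rise of 0.99 ± 0.24 in *quintuple* stayed just under the 2-fold limit (adjusted p = 0.014). *WRKY3* rose by 0.53 ± 0.19 on the log2 scale (adjusted p = 0.048), also under the limit. In *octuple* the highest FPKM were those of *WRKY15* (19.1 ± 5.09) and *WRKY53* (17.1 ± 5.51), whose order does not hold beyond their spread.

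Of 11 kinases of the mitogen-activated modules that act upstream of WRKY proteins, 7 were called higher in *quintuple*-vs-WT and none lower, where 19.5% of all genes were called in each direction. With the block it was 6 (19.9% of all genes), since *MPK5* came just under the 2-fold limit. The largest rises were *MPK11* (5.94 ± 0.69), *MKK9* (1.74 ± 0.33) and *MPK3* (1.62 ± 0.18) on the log2 scale. In *octuple*-vs-*epn* 1 of 11 was higher (2.29% of all genes), *MPK11* (4.41 ± 0.70, adjusted p = 0.028). Against WT none was called, while *MPK11* was called higher with the block (2.22 ± 0.54, adjusted p = 0.035, where 5.07% of all genes were called higher). The median log2 change of the 11 was 1.05 in *quintuple*-vs-WT and 0.30 for *octuple*-vs-*epn*, against 0.0047 and -0.03 for all genes tested.

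Of 19 genes of VQ proteins, 13 had enough counts, and 7 of these were called higher in *quintuple*-vs-WT and none lower, where 19.5% of all genes were called in each direction. The median log2 change of the 13 was 1.56 there and 0.72 in *octuple*-vs-*epn*. The largest rises were AT4G20000 (6.82 ± 0.91), *JAV1* (3.81 ± 0.47), a repressor of jasmonate defence, and AT2G22880 (3.49 ± 1.12). In *octuple*-vs-*epn* AT4G20000 (4.84 ± 0.74) and *JAV1* (2.18 ± 0.27) were called higher (2.29% of all genes), and in *octuple*-vs-WT it was *MVQ3* (1.46 ± 0.23, 1.78% of all genes). With the block 3 were called in each, where 5.53% and 5.07% of all genes were.

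Among 16 genes described as targets of WRKY proteins, 15 were tested, and 11 were called higher and 1 lower in *quintuple*-vs-WT, where 19.5% of all genes were called in each direction. The median log2 change was 3.83 there and 1.34 in *octuple*-vs-*epn*. The largest rises were the SA marker *PR1* (7.69 ± 1.66), the receptor kinase gene *FRK1* (6.84 ± 0.87) and *ICS1* (5.64 ± 0.52), and the fall was *PHO1* (-2.38 ± 0.25). In *octuple*-vs-*epn* 3 of 14 were higher (2.29% of all genes), *PR1* (7.43 ± 0.45), the camalexin gene *PAD3* (3.95 ± 0.67) and *NCED3* (1.83 ± 0.34), and with the block 7 were (5.53% of all genes). In *octuple*-vs-WT *JAZ10* was higher (4.05 ± 0.24) and *EDS1*, itself mutated in *octuple*, was lower (-1.51 ± 0.19), where 1.78% of all genes were higher and 0.151% lower. With the block 7 were higher and 2 lower, where 5.07% and 0.732% of all genes were.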

How the data were processed

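The submitters' processing notes name HISAT2 and HTSeq; the genome build and the strand setting are not given in the sources used here. Per gene, the authors deposited raw counts. FPKM deposited beside them are these counts over library total and gene length. Gene lengths implied by both equalled the RefSeq TAIR10.1 exon unions in 20110 of 20110 genes, so TAIR10.1 coordinates are given.

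Each comparison was fitted on its 6 libraries with edgeR 4.0.16 (R 4.3.3), TMM, filterByExpr and the quasi-likelihood test, with Benjamini-Hochberg adjustment over all genes; SE is the log2 fold change over the root of F. DESeq2 1.42.0, other scalings, no filter, no minimum fold, a replicate block, 1 fit of all libraries and each library left out were alternatives. The study names 3 independent replicates but no pairing. Equal replicate numbers deviated together (18 pairs, r from 0.18 to 0.78, and 36 unequal pairs, -0.59 to 0.27). Members whose call in *octuple*-vs-WT, *octuple*-vs-*epn*, *epn*-vs-WT or background dependence changed with the block are therefore named. Blocked values are given for part of them. The unblocked edgeR fit of a pair of genotypes was tested on simulated counts, and the other fits were not.

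Members and gene lists were chosen with earlier results of these data known, and 1 gene was dropped from the VQ list and others renamed after RefSeq annotation was read. Members were named if called in an *octuple* comparison or in *epn*-vs-WT, among the 12 largest rises or the falls in *quintuple*, among the 3 highest in WT, in group IIa, or *WRKY33*, *WRKY53*, *WRKY54* or *WRKY70*. All 8 mutated genes were read by the identifiers the study gives. Single-sample files equalled the series columns and were not used again.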

Additional observations from a re-analysis of the deposited data

Results flagged for a closer look

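For 16 members, the change with loss of the CBP60b clade differed between the WT and the *epn* background by the test over all 12 libraries, each with a lower log2 change in the *epn* background. In group I they were *WRKY2* (-1.31), *WRKY4* (-1.34) and *WRKY26* (-2.91) on the log2 scale. In group II they were *WRKY18* (-2.998), *WRKY6* (-2.59), *WRKY31* (-9.10), *WRKY47* (-1.59), *WRKY72* (-7.28), *WRKY8* (-2.17), *WRKY45* (-4.32), *WRKY48* (-2.61), *WRKY57* (-1.75), *WRKY11* (-1.18), *WRKY15* (-1.63) and *WRKY69* (-1.51). In group III only *WRKY41* (-3.89) passed, although 9 of 9 members of that group rose in *quintuple*. All 9 had a difference below 0, with a median of -1.42 against 0.0065 for all genes, and 3 were called with the block. *WRKY41* had 8 counts over the WT libraries, 13 over *epn* and 32 over *octuple*, against 327 over *quintuple*. Like *WRKY31* and *WRKY72*, it had enough counts for a test only through *quintuple*, so its value rests on those libraries. The values of *WRKY31* and *WRKY72* depend on how 0 counts in WT are treated and are no measure of size. With the replicate block, *WRKY25*, *WRKY33*, *WRKY54*, *WRKY60*, *WRKY65* and *WRKY70* were called too. With 3 libraries per genotype, single libraries were not tested as outliers.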

How the results depend on the processing

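All calls of *quintuple*-vs-WT (37), the 33 lower ones of *octuple*-vs-*quintuple* and the 16 with background dependence stayed within 1.5 times under every alternative run. The 2 lower calls among the 37 did not: there were 0 with scaling by library size only, 1 with no filter on low counts, 0 without *quintuple* replicate 1, and 1 with any other library left out. The calls in *octuple* did not either. Members called in *octuple*-vs-WT numbered 3, where 1.78% of all genes were called higher. There were 13 with the replicate block (5.07% of all genes), 14 with DESeq2 (4.18%) and 9 with all 12 libraries in one fit (3.05%). Leaving out 1 library gave 0 to 3 there (0.2154% to 1.045% of all genes) and 2 to 10 in *octuple*-vs-*epn* (0.3682% to 1.736% of all genes). The members that kept their rise in either comparison numbered 10, and 16 with the replicate block, 16 with DESeq2 and 2 to 10 with 1 library left out. The matching shares over all genes were not counted. In *epn*-vs-WT the replicate block gave 3 calls in place of 0, all lower, where 0.49% of all genes were called lower. The block changed no call from higher to lower. Over 3781 single-gene values under alternatives, 104 lost a call, 98 gained one, none with an adjusted p below 0.05 turned its direction, and 131 turned direction with no adjusted p below 0.05 on either side. Over all genes, the block raised the calls in *octuple*-vs-WT from 342 higher and 29 lower to 977 and 141, and in *octuple*-vs-*epn* from 441 and 24 to 1063 and 123. The cause was not tested.

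Depth limits members under about 0.07 CPM, and 9 members had too few counts for each of the *octuple* comparisons with WT and *epn*. With 3 libraries per genotype, a rise that is not called is not shown to be absent. Antisense overlaps limit *WRKY41*, *WRKY53*, *WRKY29* and *WRKY69*.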
